A study of Mus musculus with 23 samples.

Results

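Genes that define the B cell were followed through 4 populations of sorted spleen dendritic cells (DCs). The group held 9 genes of the 47729 in the deposited table, namely Cd79a, Cd79b, Ms4a1, Pax5, Ebf1, Ighm, Ighd, Cr2 and Blk. Members were found by gene symbol, and DC1b and DC3 cells were set against DC1a and DC2 cells because the genes had been seen there before. The members were thus chosen by their own levels in these libraries, selected on the contrast of DC1b and DC3 with DC1a and DC2. For the members that contrast is given as a description with no test. For other genes, counts past the threshold of the edgeR test in that contrast are given as a description only, and nothing is read from them.

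RNA was sequenced from CD11c+ MHCII+ spleen cells of wild type BALB/c mice, with pooled mice behind every library, and sorting used antibodies meant to leave out T and B lineage cells, granulocytes and NK cells, with CD3, B220, Gr-1 and CD56 among their targets. By the labels the gates were CD8hi CD172- for DC1a, CD8Int CD172+ for DC1b, CD8lo CD172hi for DC2 and CD8- CD172lo for DC3. Untreated mice gave 2 pools (8 libraries), and mice labelled TLI gave 4 pools (15 libraries, with DC2 of pool 2 not analysed here). TLI commonly stands for total lymphoid irradiation, which the labels do not spell out. Untreated pools and TLI pools 1 and 2 were labelled batch 1, and TLI pools 3 and 4 batch 2. Age, dose and time after treatment are not in the labels, and since no label says how mice were divided into pools, p-values measure the spread between these libraries.

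A B cell recognizes antigen through a membrane immunoglobulin, made of heavy chains such as IgM and IgD with light chains, which is held together with the signaling pair CD79a and CD79b. Pax5 and Ebf1 are transcription factors that commit progenitors to the B lineage and keep Cd79a and other B-cell genes on. When a B cell becomes a plasma cell, Pax5 is switched off and immunoglobulin mRNA becomes very abundant. Plasmacytoid DCs, which are found in spleen and bear B220 in the mouse, transcribe several genes that are otherwise used by B cells.

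Library totals ran from 19256447 to 36997890 counts. Levels are given as CPM, a library's counts scaled to a common total, and 3 counts, equal to 0.0811 to 0.156 CPM, were taken as the floor of detection. In bulk libraries fewer cells of a type and less RNA per cell cannot be told apart. Gate markers did not follow the labels in every library. Sirpa, which encodes CD172a, was 13.7 and 90.99 CPM in untreated DC1b of pools 1 and 2, and Cd8a was 0.41 and 41.6 CPM in untreated DC3. Cd8a was 0.3 CPM in TLI DC1b of pool 4, against 79.0 to 342 CPM in the other 3 TLI DC1b libraries. Sirpa was 5.1 and 6.5 CPM in TLI DC1b of pools 3 and 4, against 146 and 141 CPM in pools 1 and 2. It was 36.7, 9.2 and 309 CPM in the TLI DC2 libraries of pools 1, 3 and 4, against 252 and 196 CPM in untreated DC2. For the tests between treatments, values without such TLI libraries are given for Ighm, Ighd and Cd79b in DC1b. In DC2 they are given for Cd79b only.

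Levels of the 9 genes covered several orders of magnitude. Per kilobase of exon, the mean level over the 23 libraries was 606 CPM for Ighm, 28.2 for Cd79b, 10.5 for Cd79a and 4.65 for Ighd. It was 1.06 for Ms4a1, 1.05 for Blk, 0.140 for Ebf1, 0.0613 for Cr2 and 0.0206 for Pax5 on the same scale. Ighm was above the floor in 23 of 23 libraries, Cd79a and Cd79b in 22, Ighd in 20, Ms4a1 in 17, Blk in 16, Ebf1 in 13, Pax5 in 10 and Cr2 in 7. The name B-cell identity genes was thus only partly borne out, since the lineage factor Pax5 never passed 0.773 CPM and Cr2 was above the floor in 7 of 23 libraries. All 9 genes passed the filter on low counts, which asks for reads in the smallest group only.

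**Figure D1:**
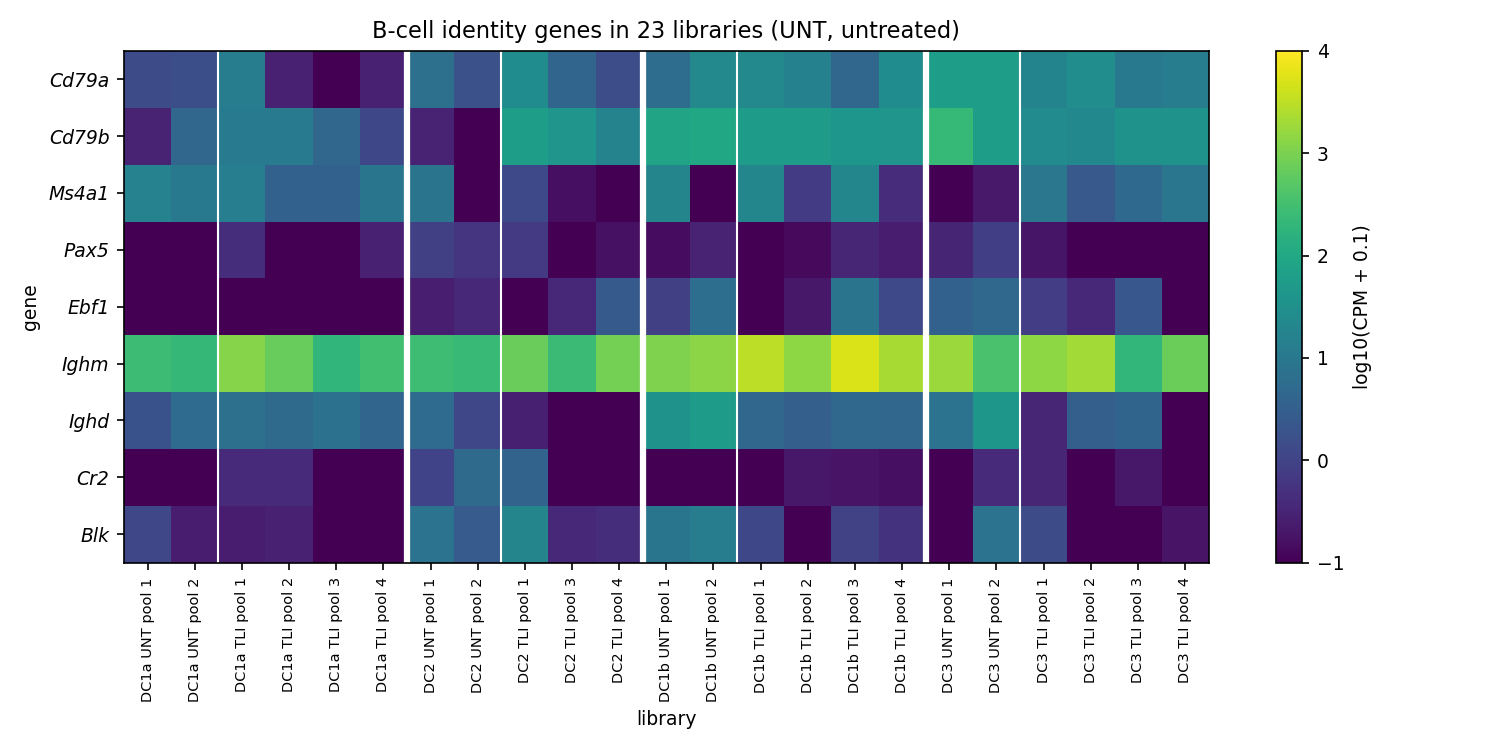
Level of each of the 9 genes (vertical axis) in each of the 23 libraries (horizontal axis), colored by log10 of CPM plus 0.1. Ighm was the brightest line in every library, Cd79b was bright in all DC1b and DC3 libraries and in TLI but not untreated DC2, and Pax5 and Cr2 stayed near the floor in most.

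Promoter sequence was at hand for 4 of the 9 genes (RefSeq, GRCm38.p6). It is shown for Cd79a, which was measured in 22 libraries, beside Pax5 and Cr2, which were near the floor. Each window runs 5′ to 3′ on the strand of the gene, from 250 bases before to 50 after the RefSeq start, and capitals mark the E-box (CANNTG, read on either strand), the motif bound by E proteins such as Tcf3 and Tcf4. Cd79a lies at chr7:24897247-24897546 (+), Pax5 at chr4:44710645-44710944 (-) and Cr2 at chr1:195176670-195176969 (-).
Cd79a: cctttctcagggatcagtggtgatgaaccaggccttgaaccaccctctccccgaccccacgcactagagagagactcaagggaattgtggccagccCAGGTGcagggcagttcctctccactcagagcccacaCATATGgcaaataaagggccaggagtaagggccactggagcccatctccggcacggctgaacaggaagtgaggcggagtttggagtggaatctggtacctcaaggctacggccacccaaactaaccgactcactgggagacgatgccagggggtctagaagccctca
Pax5: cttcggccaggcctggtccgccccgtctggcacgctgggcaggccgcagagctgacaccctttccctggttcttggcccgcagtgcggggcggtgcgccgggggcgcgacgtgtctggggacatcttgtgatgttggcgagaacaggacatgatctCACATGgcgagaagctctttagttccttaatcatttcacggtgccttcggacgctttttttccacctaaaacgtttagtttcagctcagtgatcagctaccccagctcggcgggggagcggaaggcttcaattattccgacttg
Cr2: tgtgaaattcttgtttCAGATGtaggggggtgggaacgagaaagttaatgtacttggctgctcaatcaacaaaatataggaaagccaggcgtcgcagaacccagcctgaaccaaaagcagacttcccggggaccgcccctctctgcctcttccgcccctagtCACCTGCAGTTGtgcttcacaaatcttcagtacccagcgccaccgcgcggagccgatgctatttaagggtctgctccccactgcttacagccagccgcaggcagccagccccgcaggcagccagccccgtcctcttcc
The Cd79a window held 2 E-boxes, the Pax5 window 1 and the Cr2 window 3, and 72.3% of 32851 promoters of this length held at least 1. The paired sites CCCNNGGG, read by Ebf1, and the octamer ATGCAAAT, used at immunoglobulin promoters, were searched on both strands in the same windows and in the 2 Ebf1 windows. No match was found for either, against 13.7% and 1.74% of all promoters. These matches describe letters in the window only.

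Cd79b, the second chain of the receptor's signaling pair, separated the untreated populations most clearly. It was 83.6 and 93.9 CPM in untreated DC1b (mean 88.7 ± 7.28, SD, n = 2) and 227 and 60.2 CPM in untreated DC3 (144 ± 118, SD, n = 2). In untreated DC1a it was 0.209 and 4.44 CPM, and in untreated DC2 0.203 and 0 CPM, or 5 counts and none. The lowest DC1b or DC3 library thus lay above the highest DC1a or DC2 library, while DC1b and DC3 overlapped each other. In TLI mice DC1b libraries held 55.7, 54.6, 41.7 and 39.7 CPM and DC3 libraries 26.0, 21.5, 36.0 and 35.4 CPM for pools 1 to 4. DC1a libraries of the same pools held 11.0, 11.8, 4.38 and 1.11 CPM, and the TLI DC2 libraries of pools 1, 3 and 4 held 62.6, 40.3 and 17.4 CPM. Under TLI the order of means was DC1b, DC2, DC3 and DC1a, with DC2 overlapping both of its neighbors and DC1a below every other library.

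Cd79a, the partner chain, followed this pattern only in part. In untreated mice it was 63.4 and 63.7 CPM in DC3 and 6.03 and 22.03 CPM in DC1b, with 6.998 and 1.66 CPM in DC2 and 1.36 and 1.47 CPM in DC1a. DC3 stood above all other untreated libraries, and DC1b overlapped DC2. In TLI mice it was 22.1, 15.4, 4.40 and 26.6 CPM in DC1b and 18.003, 28.7, 10.4 and 13.2 CPM in DC3. It was 27.006, 4.16 and 1.41 CPM in TLI DC2, and in TLI DC1a it was 13.1 CPM in pool 1 and 0.184, 0 and 0.190 CPM in the others. The pair was not at a fixed ratio: Cd79b per Cd79a, per kilobase, was 4.34 and 14.1 in untreated DC1b, 3.65 and 0.962 in untreated DC3, at most 0.0296 in untreated DC2 and 2.36 to 12.6 in TLI DC2.

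Ighm, the constant region of the IgM heavy chain, was the most abundant member in every library. Untreated DC1b held 1093 and 1359 CPM and untreated DC3 1735 and 359 CPM, against 268 and 218 CPM in DC1a and 283 and 250.0 CPM in DC2. All 4 DC1b and DC3 libraries exceeded the 4 others, the narrowest gap being between DC3 of pool 2 and DC2 of pool 1. In TLI mice the DC1b libraries held 3140, 1418, 5193 and 2263 CPM and the DC3 libraries 1431, 2002, 207 and 756 CPM. TLI DC1a held 1245, 691, 194 and 313 CPM, and TLI DC2 held 709, 255 and 916 CPM for pools 1, 3 and 4. DC1b was above all other TLI libraries but for DC3 of pools 1 and 2, and DC1a, DC2 and DC3 overlapped.

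Ighd, the IgD heavy chain that naive B cells make beside IgM, was highest in untreated DC1b at 35.1 and 54.2 CPM and untreated DC3 at 8.06 and 43.6 CPM. It was 1.71 and 5.59 CPM in untreated DC1a and 5.41 and 1.04 CPM in untreated DC2, so that the 2 pairs of populations did not overlap. No TLI library passed 7.60 CPM, and the highest TLI group was DC1a, at 6.999, 5.33, 7.60 and 4.13 CPM. TLI DC1b held 4.38, 3.23, 4.74 and 4.31 CPM, TLI DC3 0.237, 3.21, 4.08 and 0 CPM, and TLI DC2 0.170, 0 and 0 CPM. Ighm per Ighd, per kilobase, was 25.3 and 31.4 in untreated DC1b and ran from 443 to 1105 in TLI DC1b, with no overlap and no test of the ratio. The exons of both genes lie in the immunoglobulin heavy chain locus of chromosome 12, where BALB/c carries other alleles than the reference strain, and what this did to the counts was not tested.

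**Figure D2:**
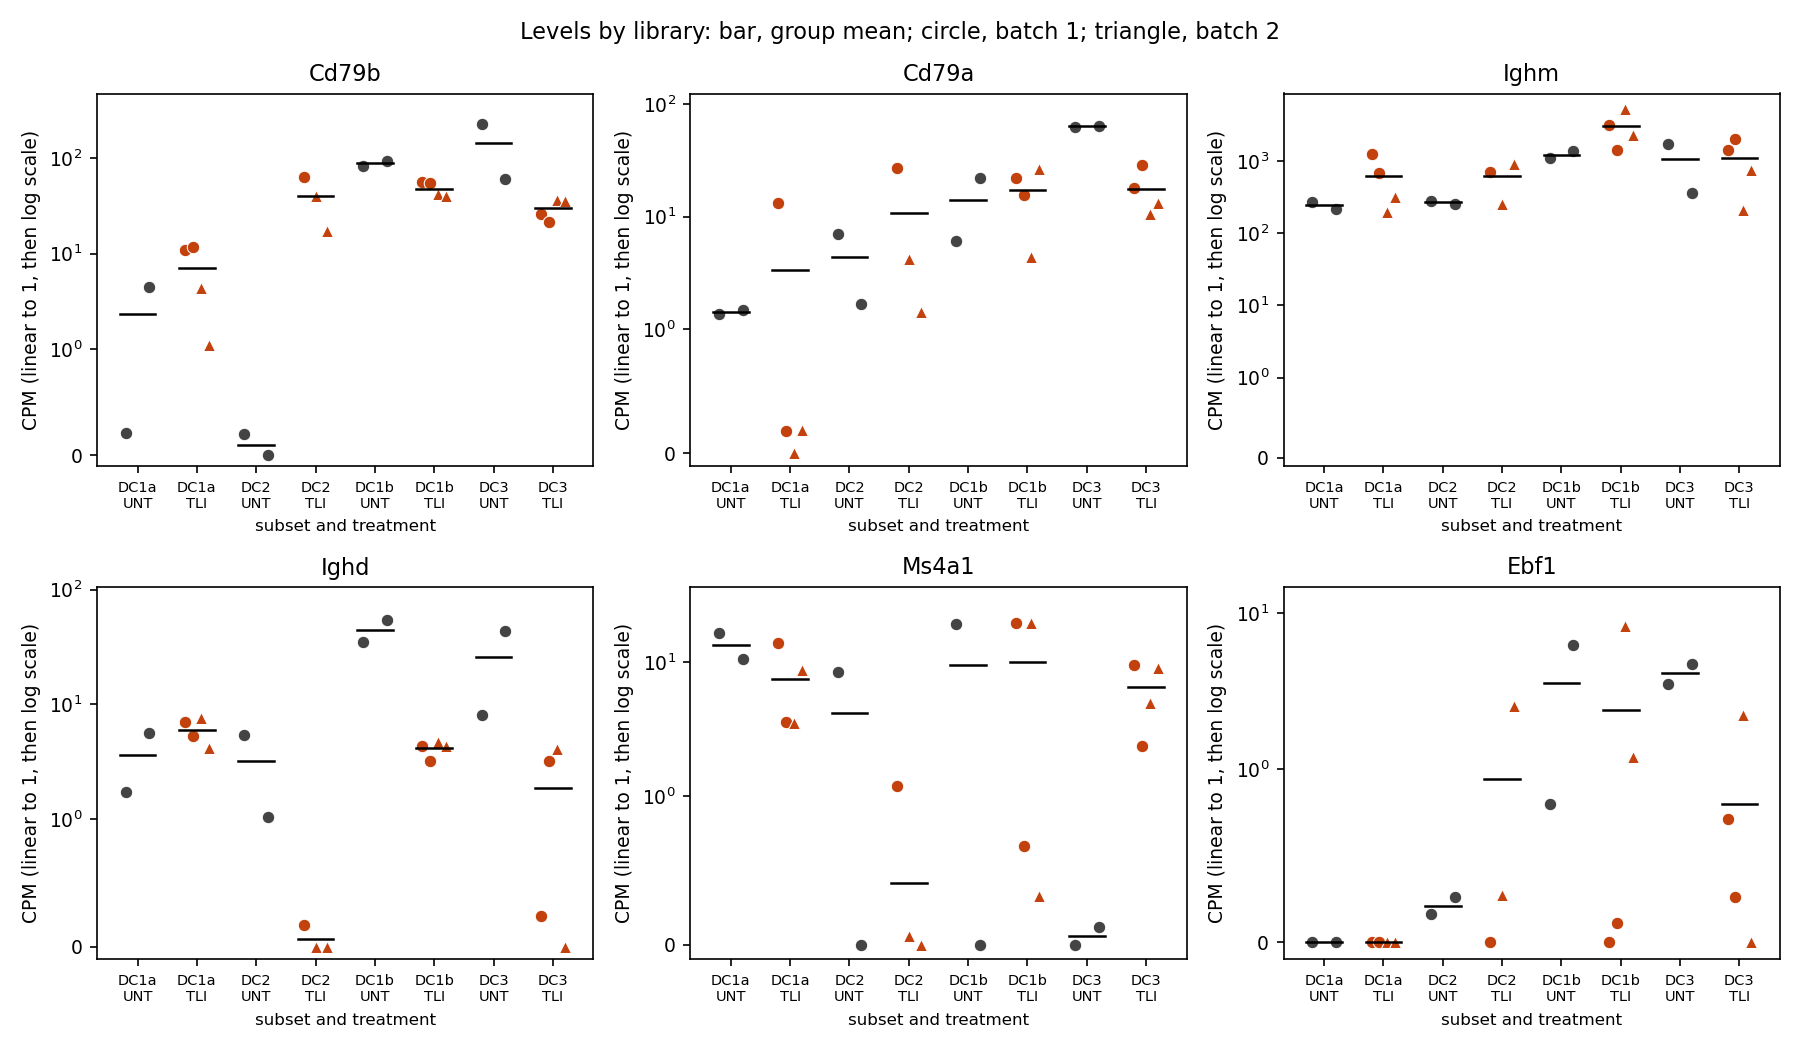
Level (CPM, linear up to 1 and logarithmic above) of 6 of the genes in each library, by population and treatment. Black is untreated, orange is TLI, bars are group means, circles are batch 1 and triangles batch 2; Cd79b was at or near 0 in both untreated DC2 libraries and at 17.4 to 62.6 CPM in the 3 TLI DC2 libraries.

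Surface molecules of the mature B cell did not divide along the gates. Ms4a1, which encodes CD20, was 16.3 and 10.6 CPM in untreated DC1a, 19.1 and 0 CPM in DC1b, 8.34 and 0 CPM in DC2, and 0 and 0.118 CPM in DC3. Under TLI it ran from 0.327 to 19.6 CPM in DC1b, 2.36 to 9.48 CPM in DC3, 3.51 to 13.9 CPM in DC1a and 0 to 1.19 CPM in DC2. It thus came and went between pools of the same gate, and DC1a, not DC1b or DC3, was the one gate above the floor in every library. Cr2, the complement receptor CD21 of follicular and marginal zone B cells, was above 1 CPM in 2 libraries only, untreated DC2 of pool 2 at 5.25 CPM and TLI DC2 of pool 1 at 3.79 CPM. It was at 0 in both untreated DC1b libraries and in both untreated DC1a libraries.

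Blk, a Src family kinase of B-cell receptor signaling, was 8.52 and 13.3 CPM in untreated DC1b, 0 and 7.91 CPM in DC3, 7.93 and 2.65 CPM in DC2 and 1.08 and 0.154 CPM in DC1a. Its highest level, 18.8 CPM, was in TLI DC2 of pool 1, and no other TLI library passed 1.37 CPM. Ebf1 was 0.800 and 6.32 CPM in untreated DC1b, 3.55 and 4.74 CPM in DC3, 0.163 and 0.260 CPM in DC2 and 0 in all 6 DC1a libraries, treated or not. Under TLI it reached 8.36 CPM in DC1b of pool 3, and 2.55 CPM was the highest among the rest. Pax5 was highest in untreated DC2 of pool 1 at 0.773 CPM and untreated DC3 of pool 2 at 0.744 CPM, or 19 counts each. Exons of Pax5 overlap those of 2 transcripts on the other strand, and with no statement on whether strand was used in counting, reads of these genes cannot be told apart.

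Counted over the members, 4 of 9 (Cd79b, Ebf1, Ighm and Ighd) had all untreated DC1b and DC3 libraries above all DC1a and DC2 libraries, and none had the opposite. Among the 19597 genes tested, 3.49% lay higher and 1.31% lower in this way. The rule used this contrast, and nothing is read from the count. In TLI mice 0 of 9 members separated the 8 DC1b and DC3 libraries from the 7 others, against 0.0357% of all genes in either direction.

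The difference between DC3 and DC1b had no part in the choice of genes and was tested with edgeR's quasi-likelihood test over all genes (Benjamini-Hochberg adjustment, threshold 0.05). In untreated mice 0 of 9 members passed, against 0.393% of all genes. For 1 member (Ms4a1) the unadjusted p was under 0.05, as for 1652 of the 19597 genes tested. DESeq2 called Cr2, which was at 0 in untreated DC1b and at 0 and 0.313 CPM in DC3. The fitted difference for Cd79a was 2.19 log2 units higher in DC3 (SE 1.74, adjusted p = 0.777), and for Cd79b it was 0.70 higher (SE 1.06, adjusted p = 0.950). Cd79a and Pax5 were higher and Blk lower in DC3 without overlap of the libraries, a separation by 2 against 2 that 39.9% of all genes showed.

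In TLI mice 0 of 9 members passed between DC3 and DC1b, against 1.11% of all genes. DESeq2 also called none, and 1 member (Ighm) had an unadjusted p under 0.05, as had 2330 of 19597 genes. Ighm was 1.95 log2 units lower in DC3 (SE 0.66, adjusted p = 0.228), and this call was made only when no filter on low counts was used (adjusted p = 0.0247). Without the TLI DC1b library of pool 3 or of pool 4 the difference was -1.34 and -1.98, and within batch 1 and batch 2 it was -0.54 and -3.09. Cd79b was lower in each of the 4 DC3 libraries than in each DC1b library, as 2.71% of all genes were, with a fitted difference of -0.72 (SE 0.76, adjusted p = 0.769).

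TLI was compared with no treatment within each population, with a term for batch. The same libraries were used in choosing the genes, so these tests are not free of that choice. In particular, Cd79b in untreated DC2 lay on the low side of the contrast that chose the members. Of the 9 genes, 1 passed the threshold in 1 population, which does not show that the others were unchanged. Cd79b was higher in DC2 of TLI mice, at a fitted log2 difference of 8.86 (SE 1.54, adjusted p = 0.0402), where 0.0612% of all genes passed. Summed over libraries, 3317 counts stood against 5, a ratio of CPM of 339 with a counting interval of 145 to 1046 that covers counting error only. All 3 TLI libraries lay above both untreated ones, as 10.6% of all genes did. The call was lost without the batch term (adjusted p = 0.0635). It was also lost within batch 1 (0.137), where TLI DC2 is 1 library whose spread is taken from the other groups, and there with the pool number as a block (0.205), although a number shared by TLI and untreated pools marks different mice. The same held without TLI pool 3 (0.0678), without TLI pool 4 (0.0576) and without either untreated DC2 library (0.0970 without pool 1 and 0.200 without pool 2), but was kept without TLI pool 1 (0.0402). The fitted difference stayed between 7.96 and 13.40 throughout, and its size depends on how the fit treats the count of 0.

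Of the other receptor genes in DC2 none passed the test, and no difference from Cd79b was tested. Ighd had 4 counts in the 3 TLI libraries and 153 in the 2 untreated ones, and both untreated libraries lay above all TLI libraries, as 14.6% of all genes did. Its adjusted p was 0.343 by edgeR (fitted log2 difference -5.70, SE 1.80), and DESeq2 called it. Ighm was 1.85 higher (SE 0.91, adjusted p = 0.569) and Cd79a 2.09 higher (SE 1.71, adjusted p = 0.757), and for both the libraries of the treatments overlapped. Of 4 light chain constant genes 0 passed, and 4 had an unadjusted p under 0.05, as had 1765 of 19597 genes. Their median fitted difference was 5.77, and Igkc was 844 and 41.3 CPM in untreated and 8064, 985 and 13023 CPM in TLI DC2.

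In DC1b 0 of 9 members passed, against 0.413% of all genes. Ighm was 2.23 log2 units higher in TLI mice (SE 0.90, adjusted p = 0.326), with all 4 TLI libraries above both untreated ones. It was the only member there with an unadjusted p under 0.05, which 2425 of 19597 genes had. DESeq2 called only Cr2, which had at most 3 counts in each DC1b library. Ighd was 2.87 lower (SE 1.56, adjusted p = 0.468) and Cd79b 0.23 lower (SE 0.97, adjusted p = 0.968), and for both, as for Blk, the TLI libraries lay below the untreated ones. Without the TLI DC1b library of pool 3 or of pool 4 the difference was 1.72 and 2.26 for Ighm, -2.98 and -2.95 for Ighd and -0.28 and -0.27 for Cd79b, and with the 2 TLI libraries of batch 1 alone it was 1.25 for Ighm. Of all genes 5.12% lay higher and 15.7% lower without overlap of the treatments, against 1 and 3 of the 9 members.

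In DC3 0 of 9 members passed, against 0.0255% of all genes. An unadjusted p under 0.05 was found for 2 (Ms4a1 and Ighd), and for 2044 of 19597 genes. DESeq2 called Ms4a1, with 720 counts in the 4 TLI libraries and 3 in the 2 untreated ones, a ratio of CPM of 102 with a counting interval of 34.8 to 496. Cd79a, Cd79b, Pax5, Ebf1 and Ighd were below both untreated libraries in all 4 TLI libraries, as 11.2% of all genes were, and Ms4a1 was above them, as 3.27% were. The fitted difference was -1.65 for Cd79b (SE 0.98, adjusted p = 0.565), -0.48 for Cd79a (SE 1.63, adjusted p = 0.962) and -3.48 for Ighd (SE 1.56, adjusted p = 0.465).

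In DC1a 0 of 9 members passed, against 0.0102% of all genes. None had an unadjusted p under 0.05, against 1912 of 19597 genes. DESeq2 called only Cr2, which was at 0 in the untreated libraries and had at most 9 counts in a TLI library. Cd79b was 1.86 higher (SE 1.03, adjusted p = 0.567) and Ighm 1.67 higher (SE 0.82, adjusted p = 0.530). No member separated TLI from untreated libraries, while 13.6% of all genes did.

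**Figure D3:**
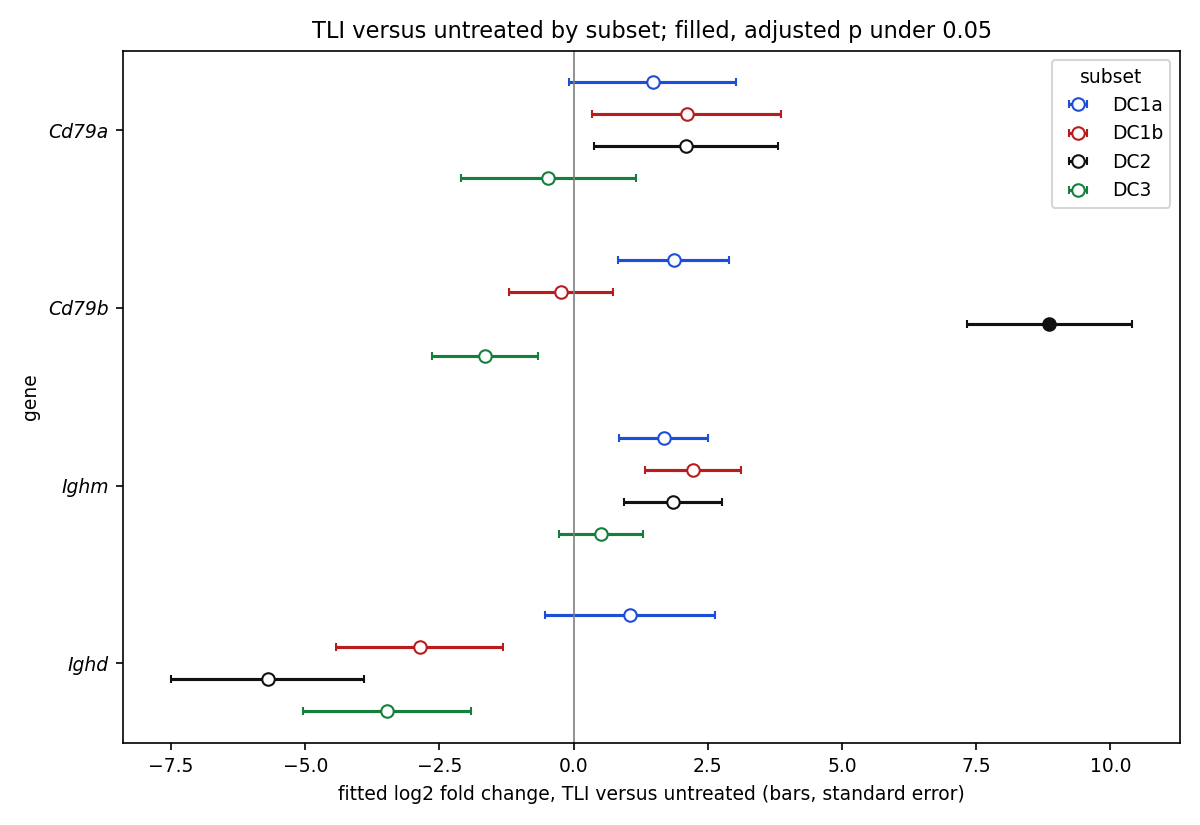
Fitted log2 fold change of TLI versus untreated mice (horizontal axis, bars are standard errors) for Cd79a, Cd79b, Ighm and Ighd in each population. The filled point, Cd79b in DC2 at 8.86, is the one with an adjusted p under 0.05.

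The response of Cd79b to TLI was then compared between populations. The TLI difference in DC3 minus that in DC1b was -1.42 (SE 1.31, adjusted p = 0.837), and 0 of 9 members passed in this comparison, against 0.0204% of all genes. By edgeR 0 of 9 had an unadjusted p under 0.05, against 1663 of 19597 genes, and by DESeq2 only Cr2 was called. The 5 other pairs of populations were tested after the values had been seen. All but DC2 against DC1a hold the untreated gap of DC1b or DC3 from DC1a or DC2, the contrast that chose the members. Their p-values are thus a description, and nothing is read from them. The TLI difference in DC2 exceeded that in DC1b by 9.10 (SE 1.66, adjusted p = 0.0409) and that in DC3 by 10.51 (SE 1.72, adjusted p = 0.0340), where 0.122% and 0.0357% of all genes passed. It exceeded that in DC1a by 7.0 (SE 1.59, adjusted p = 0.309), where 0.0255% passed. The remaining differences, DC1b minus DC1a at -2.10 (adjusted p = 0.759) and DC3 minus DC1a at -3.51 (adjusted p = 1), did not pass, nor did more than 0.0357% and 0% of all genes. With the pool of mice as a block the first 2 were at adjusted p = 0.135 and 0.167. Single libraries decided both calls: leaving out 1 library moved the adjusted p between 0.0404 and 0.203 for DC2 against DC1b, which kept its call only without TLI DC2 of pool 1 or 4. For DC2 against DC3 it moved between 0.0275 and 0.197, with the call kept without TLI DC2 of pool 1 or 4, TLI DC3 of pool 3 or untreated DC3 of pool 2.

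The rest of the B-cell program was read from 45 further genes, 43 of which passed the filter. Their levels in DC1b and DC3 against DC1a and DC2 are a description, since that contrast chose the members. In untreated mice the median fitted difference was 1.96 log2 units, beside 0.04 over all genes tested, of which 0.403% passed the threshold. The groups of genes went different ways. The median was 0.19 for 13 genes of receptor signaling, whose summed level was highest in untreated DC2 at 1694 and 1699 CPM, against 1433 and 1474 CPM in DC1b and 1018 and 807 CPM in DC3. Within that list Blnk went the other way, at 388 and 477 CPM in untreated DC1b and 0.651 and 0.156 CPM in untreated DC2. The sum of 13 other surface and cytoplasmic genes was also highest in untreated DC2, at 889 and 943 CPM, against 638 and 771 CPM in DC1b. The lead of DC2 over DC1b in this second sum rested on 1 of its genes, Cd180, given below. The sums thus do not stand for every gene in them. The median was 4.93 for 4 light chain constant genes and 8.66 for the 4 switched heavy chain genes that passed the filter. Igha, the IgA heavy chain, was 108 to 5413 CPM in the 4 untreated DC1b and DC3 libraries and at most 3.8 CPM in the 4 other untreated libraries. Iglc3, a lambda light chain constant region, was 98.1 to 3720.5 CPM in these 4 and at most 45.4 CPM in the other untreated ones. Cd180, a Toll-like receptor homolog of B cells and DCs, was 426 and 412 CPM in untreated DC2 and 62.4 to 134 CPM in the other untreated libraries.

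Spib, a transcription factor shared with plasmacytoid DCs, was 158 and 323 CPM in untreated DC1b and at most 15.9 CPM in any other library. Pou2af1, the octamer co-activator, did not pass 31.0 CPM. Fcer2a, the IgE receptor CD23 of follicular B cells, reached at most 1.51 CPM in any library. In TLI mice the median fitted difference of the 43 genes was 0.25 in the same contrast, beside 0.03 over all genes, of which 0.143% passed. Between treatments 1 of the 43 passed the threshold, in DC2: Cd180 was 3.18 log2 units lower in TLI mice (SE 0.30, adjusted p = 5.45e-05), at 54.9, 32.2 and 37.8 CPM against 426 and 412 CPM. In DC1a, DC1b and DC3 0 of the 43 passed between treatments, with 2, 14 and 3 at an unadjusted p under 0.05. Of all 19597 genes tested, 1912, 2425 and 2044 were under it in these populations.

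Markers of antibody-secreting cells moved with several members. Igkc, the kappa light chain constant region, was 5990.5 and 2659 CPM in untreated DC1b and 36989 and 20193 CPM in untreated DC3, against 41.3 to 1456 CPM in untreated DC1a and DC2. The summed level of 7 plasma cell markers was 1014 to 1060 CPM in untreated DC1b, 4608 to 10080.1 CPM in DC3, 156 to 219 CPM in DC1a and 145 to 230 CPM in DC2. Most of the sum in DC1b and DC3 was 1 gene, Jchain, at 748 and 652 CPM in untreated DC1b and 9026 and 4187 CPM in untreated DC3. Of the 7, Mzb1, a chaperone of antibody secretion, was 137 to 638 CPM in untreated DC1b and DC3 and at most 5.79 CPM in DC1a and DC2. Derl3 was at or below the floor in both untreated DC1b, both DC1a and both DC2 libraries. The variable gene segments, of which 348 are annotated, took 30.4 to 1079 CPM in untreated DC1a and DC2 and 988 to 25544 CPM in untreated DC1b and DC3. In untreated DC3 152 and 112 segments were above the floor and the top segment held 12.9% and 16.4% of their counts, while in untreated DC1b the top segment held 44.8% and 54.2%.

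After TLI the plasma cell sum was 1313 to 14598.5 CPM in DC1b, 1425 to 5451 CPM in DC3, 416 to 3555 CPM in DC2 and 352 to 1151 CPM in DC1a. Jchain again made up most of the sum in every DC1b, DC3 and DC2 library. In the TLI DC2 libraries, where Cd79b was 62.6, 40.3 and 17.4 CPM, Jchain, the joining chain of secreted IgM and IgA, was 3341, 336 and 1587 CPM and Mzb1 was 17.9, 0.6 and 12.8 CPM. In untreated DC2 Jchain was 89.4 and 1.8 CPM. Of the 7 markers Sdc1 and Derl3 were at or below the floor in all 3 TLI DC2 libraries, and the others were not. The part of plasma cells in the level of Cd79b was not tested.

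**Figure D4:**
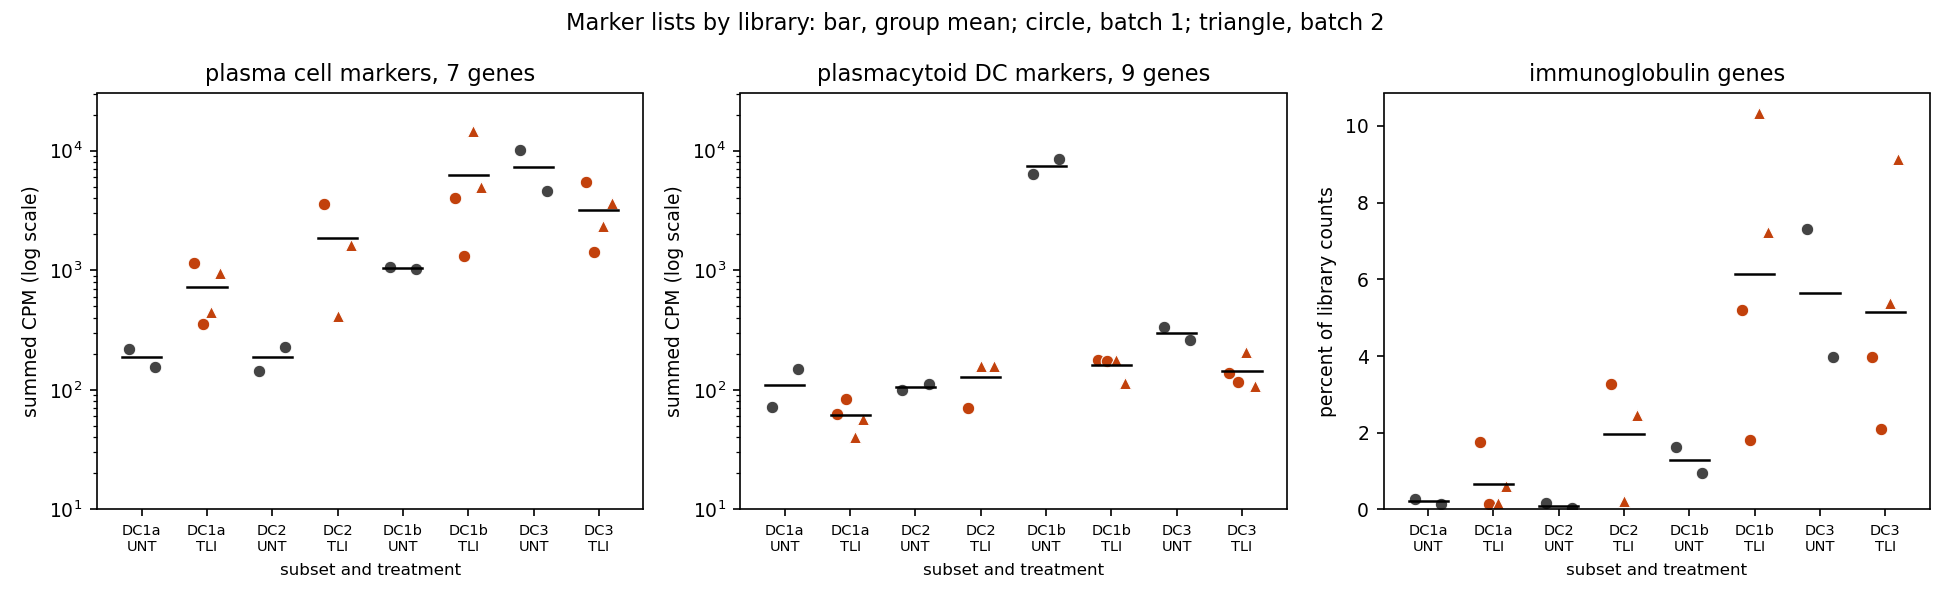
Summed CPM of 7 plasma cell markers and of 9 plasmacytoid DC markers (log axes) and the percent of counts on immunoglobulin genes, per library (points), with group means (bars). The plasmacytoid sum was 6335 and 8570 CPM in untreated DC1b and at most 338 CPM in every other library.

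Plasmacytoid DC markers set untreated DC1b apart from DC3. Their sum was 6335 and 8570 CPM in untreated DC1b, 261 and 338 CPM in untreated DC3 and 113 to 178 CPM in TLI DC1b. Siglech, a surface lectin of plasmacytoid DCs, was 1159.5 and 1858 CPM in untreated DC1b and 44.4 and 34.2 CPM in untreated DC3. Blk, Ighd and Cd79b were higher in untreated than in TLI DC1b without overlap, in the same libraries as these markers, and the part of plasmacytoid DCs in that was not tested. Among B-cell precursor markers, Rag1, Vpreb1 and Vpreb2 were at or below the floor in all DC1b libraries of either treatment. The precursor sum of 237 and 287 CPM in untreated DC1b came from Dntt and Il7r, since the 5 other genes were at the floor there. The marginal zone B-cell list, whose Cd9 and Notch2 are also used by other cells, summed to 275 to 389.6 CPM in untreated DC1b and 417 to 420.3 CPM in DC3, below the 600.4 to 737 CPM of DC1a.

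Markers of other cells also differed with gate, treatment and batch. The sum of 6 NK cell markers was 228 to 443 CPM in untreated DC1b and DC3, against 2.62 and 2.72 CPM in DC1a and 46.6 and 98.0 CPM in DC2, and reached 4065 CPM in a TLI DC3 library. Macrophage and monocyte markers summed to 1656 and 2489 CPM in untreated DC1b, against 93.3 to 532 CPM in the other untreated libraries. Trac, the T-cell receptor alpha constant region, was 5.9 to 54.6 CPM in the 7 libraries of TLI pools 1 and 2 and at most 0.1 CPM in the 16 others. Neutrophil markers summed to 767 to 10505 CPM in TLI DC1b and 109.8 to 1473 CPM in TLI DC2, against at most 10.9 CPM in all untreated libraries, although Gr-1 was in the sort. Erythroid markers reached 82992 CPM in a TLI DC3 library, against at most 1393 CPM in untreated mice. Their part in the levels of the 9 genes was not tested.

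Correlations were computed over the 23 libraries on log2 CPM, as a description, since libraries share pools, gates and batches. Between members r ran from -0.48 (Ms4a1 with Ebf1) to 0.66. It was 0.55 for Cd79a with Cd79b, 0.57 for Cd79b with Ighm, 0.66 for Pax5 with Cr2 and 0.11 for Ighm with Ighd. Cd79b was closer to Mzb1 (r = 0.79), Jchain (0.77) and Igkc (0.72) than to any other member, and less close to Siglech (0.26). Ms4a1 was not above 0.16 with any of the genes compared.

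**Figure D5:**
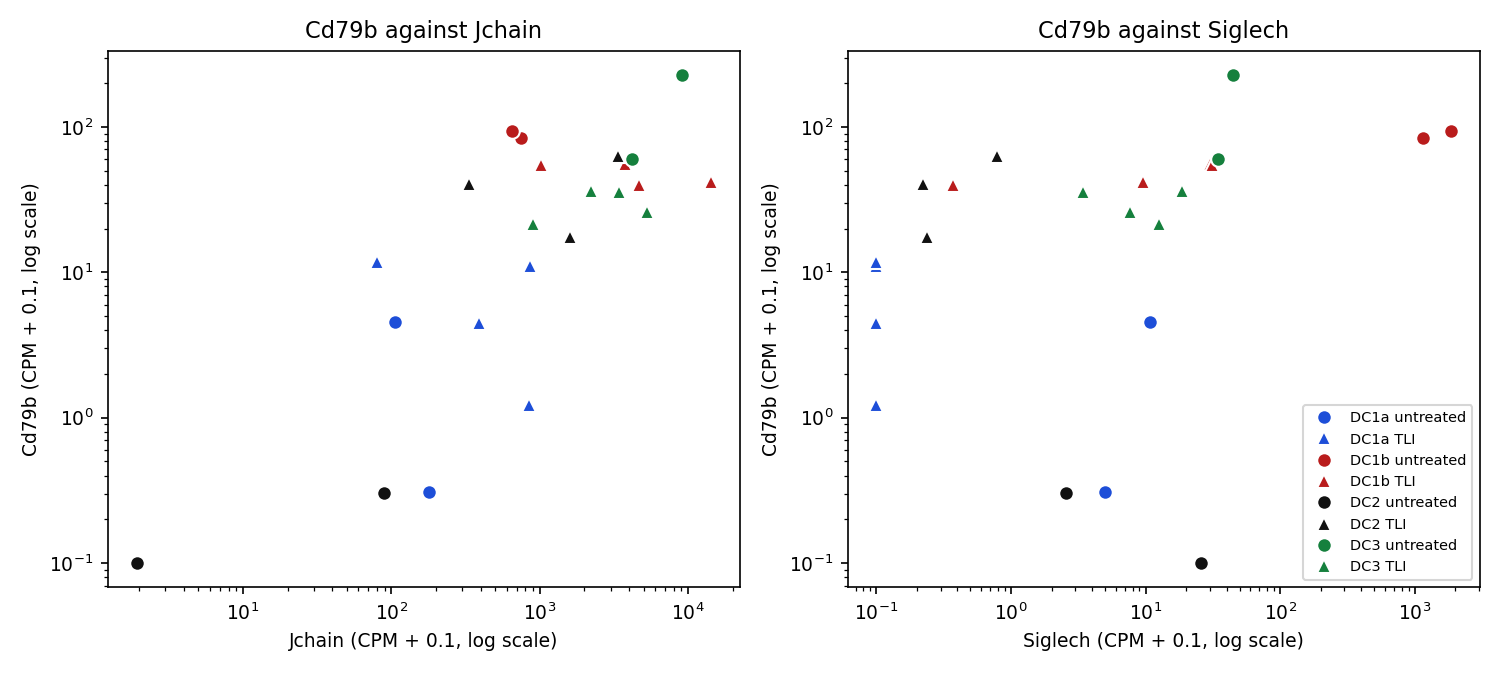
Cd79b against Jchain (left) and against Siglech (right), both axes CPM plus 0.1 on log scales, one point per library. TLI DC2 libraries (black triangles) sit at 17.4 to 62.6 CPM of Cd79b with 336 to 3341 CPM of Jchain and with Siglech below 1 CPM.

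The mean of the 9 members, each scaled alike, was a weak common pattern. The r of a member with the mean of the others ran from -0.25 (Ms4a1) to 0.55 (Cd79a), with 0.23 for Cd79b and 0.08 for Cr2. The genes outside the group whose level over the 23 libraries was most like the mean of the 9 members were Ikzf3 (r = 0.80), Gab3 (0.75), Rgma (0.75), Mum1 (0.74) and Lrp8 (0.73). Ly6g5b, Ets1, B4galt5 and Prkca followed at 0.71. Ikzf3 and Ets1 are lymphoid transcription factors and were also among the 45 further B-cell genes. Rgma had a median of 0.0519 CPM and lay near the floor in most libraries.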

How the data were processed

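The deposited table held estimated counts per gene for 23 libraries, which the authors made with Trimmomatic, HISAT2 on GRCm38 and StringTie. The values are whole numbers derived from transcript coverage and were used as they are. cDNA came from a low-input SMARTseq kit, whose amplification adds spread to low genes, and intervals cover counting error only. Symbols were taken from GENCODE M21 for 47310 of 47729 identifiers (419 had none). The 9 members and all gene lists were chosen with earlier results of these data known. Tests used edgeR 4.0.16 in R 4.3.3 (quasi-likelihood, TMM scaling, filterByExpr, 8 groups plus batch, 23 libraries in 1 fit) with Benjamini-Hochberg adjustment over 19597 genes, and DESeq2 1.42.0 was an alternative. Both were tested on simulated data, where DESeq2 made far more false calls than edgeR, so its counts are likely too high. In the same data edgeR missed most of the genes that had been changed, and DESeq2 missed fewer. A gene that did not pass by edgeR may thus still differ. Fitted changes are given for members with a mean of at least 10 CPM in a compared group, and for a few others named for their counts. Of the further B-cell genes, Spib, Pou2af1 and Igkc were always named, with up to 3 called genes a direction, and the genes most like the members were named by r. Some genes these rules name are not reported here. Others were named after their values were seen. Pool numbers within a treatment mark the same mice by the labels, and deviations from group means correlated at -0.0058 to 0.393 between libraries of a pool (33 pairs, median 0.12) and at a median of -0.11 otherwise. Alternatives changed the scaling, filter, tool, batch term, block and libraries used.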

Additional observations from a re-analysis of the deposited data

Results flagged for a closer look

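In 24 sets of a gene and a group of 4 libraries, 3 held a library set far apart from the other 3. The cut-off was made for normally distributed values, which low counts are not, so no chance rate is given for it. Cd79a was 13.1 CPM in TLI DC1a of pool 1, while the 3 others were at 0.190 CPM or less. Ebf1 was 8.36 CPM in TLI DC1b of pool 3, against 1.19 CPM or less in the others. Blk was 1.37 CPM in TLI DC3 of pool 1, against 0.0854 CPM or less in the others. The TLI difference of Cd79b departed between populations, by 9.10 log2 units for DC2 against DC1b (edgeR adjusted p = 0.0409) and by 10.51 for DC2 against DC3 (adjusted p = 0.0340). Both were tested after the values had been seen, and both rest on 5 counts in the untreated DC2 libraries. Both also hold the untreated contrast that chose the members, so nothing is read from their p-values.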

How the results depend on the processing

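Among the 9 members, DESeq2 called 1 in DC1a, DC1b and DC3 and 2 in DC2 between treatments, 1 between untreated DC3 and DC1b and 1 for the difference of TLI effects between DC3 and DC1b, where edgeR called 0, 0, 0, 1, 0 and 0. In DC2 the count was 0 without the batch term, in batch 1 alone and with the replicate block (Cd79b adjusted p = 0.205), and 0 to 1 when single libraries were left out. Without the filter 1 member was called between DC3 and DC1b of TLI mice. In the contrast that chose the members, where counts are a description only, the further B-cell genes past the threshold in untreated mice, 3 in all, were 7 without the filter, 15 by DESeq2, 1 without the batch term, 6 in untreated libraries alone and 0 to 1 on leaving out a library. In TLI mice their number went from 0 to 2 without the filter, 7 by DESeq2 and 1 in batch 2 alone. DESeq2 and the fit without the filter also called more of all genes in each of these comparisons, by the counts given at the end. Nothing is thus read from the higher numbers of members or further B-cell genes. Over 35 pairs of a member and a comparison, 472 of 521 alternative values kept direction and side of the threshold, 28 lost the call, 2 gained it and 19 turned direction.

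Directions turned as follows, and the cause was not tested. When single libraries were left out, the TLI difference ran from -0.65 to 0.14 for Ms4a1 in DC1a (0.05 without untreated pool 1), turned to -0.067 and -0.02 for Ms4a1 in DC1b, and ran from -0.73 to 0.010 for Cd79a and -0.20 to 2.00 for Ighm in DC3. Between untreated DC3 and DC1b it ran from -0.50 to 1.34 for Cd79b, -1.71 to 0.48 for Ighm and -2.49 to 0.023 for Ighd. Between DC3 and DC1b of TLI mice Cd79a was 0.051 with the replicate block, 0.19 in batch 1 and -0.81 to 1.13 without single libraries, and Ms4a1 was 0.12 with the block and -1.23 to 0.93 without single libraries. For the difference of TLI effects between DC3 and DC1b the range without single libraries was -4.43 to 10.07 for Ms4a1, -2.09 to 1.14 for Ighd and -2.42 to 8.20 for Blk, and Blk was 0.57 without the batch term and 1.60 in batch 1.

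Counts over all genes moved too. Between treatments in DC1a, DC1b, DC2 and DC3 edgeR called 2, 81, 12 and 5 genes, against 31, 167, 72 and 60 without the filter, 741, 1228, 878 and 747 by DESeq2 and 0, 19, 7 and 2 without the batch term. In batch 1 alone they were 4, 7 and 2 in DC1b, DC2 and DC3, with the replicate block 0, 14 and 2 in DC1a, DC1b and DC3, and without single libraries 0 to 1, 3 to 100, 6 to 43 and 2 to 7. Between DC3 and DC1b the 77 genes in untreated and 217 in TLI mice were 121 and 343, 896 and 1323, and 5 and 108 under the same first 3 changes, 50 in untreated libraries alone, 0 and 59 in TLI batches 1 and 2, and 4 to 38 and 128 to 211 without single libraries. For DC1b and DC3 against the others the 79 and 28 genes were 181 and 137, 995 and 803, and 39 and 2, then 119 in untreated libraries alone, 0 and 12 in TLI batches 1 and 2, and 16 to 57 and 18 to 55 without single libraries. The 4 genes whose TLI effect differed between DC3 and DC1b were 45, 614 and 1, 0 in batch 1 and 0 to 12 without single libraries.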
